A study of Mus musculus with 6 samples.

Results

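Heat shock factor 1 (Hsf1) and 9 heat shock genes were examined in mouse liver after a short high-cholesterol diet. The 10 genes were chosen by name: the regulator Hsf1, the 7 stress-inducible genes Hspa1a, Hspa1b, Hsph1, Dnajb1, Hsp90aa1, Bag3 and Hspb1, and the 2 genes Hspa8 and Hspe1, which unstressed cells also express at a high level. All 10 were found among the 20673 genes of the deposited tables, and all 10 passed the filter on low counts that left 13105 genes for testing. RNA came from whole liver of C57BL/6J mice of around 12 weeks, with 1 library per mouse. The controls were 3 mice on regular chow (RD), and the comparison group was 3 mice given a high-cholesterol diet (HCD) for 3 days. Beside cholesterol, the HCD contained cocoa butter and sodium cholate, so that the diets differ in fat and bile salt as well. The labels name no transgene or deletion in either group, and the livers were taken after feeding, without the sepsis surgery used elsewhere in the study.

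The libraries held 13771630 to 23129576 counts on genes with RD and 13935491 to 18545549 with HCD. Levels are given as CPM, counts scaled to a common library total with edgeR's TMM factors, and values of single livers stand in the order of the replicate numbers. Comparisons of level between genes use the deposited FPKM, which are also divided by gene length. The study used male and female mice, and the labels do not give the sex of each liver. HCD replicate 1 stood apart from the other 5 libraries, with 5032 counts of Xist against 0 and with 0 counts on 4 Y-linked genes that summed to 1075 to 2666 in the others. By these counts HCD replicate 1 reads as female and the other 5 as male, so that sex is unevenly split between the diets. Results are therefore also given without that library. The 10 hepatocyte markers summed to 104119 to 134451 CPM with RD and 110491 to 153226 with HCD, and none was at 0.

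Cells answer misfolded protein with the heat shock response. HSF1 is held inactive by chaperones in the unstressed cell, and when these are drawn to misfolded protein it forms trimers and binds heat shock elements, which are inverted repeats of the letters GAA, in front of its targets. The targets encode chaperones: HSP70 proteins bind exposed hydrophobic stretches, J-domain proteins bring them clients, nucleotide exchange factors release the clients, HSP90 completes the folding of kinases and hormone receptors, and small heat shock proteins hold unfolded proteins in solution. Most chaperone families pair an inducible gene with a constitutive relative that carries the daily load.

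The 2 inducible HSP70 genes lie on chromosome 17 within a few gene lengths of each other, and over most of their length they differ at few bases, which bears on the Hspa1a and Hspa1b counts. Their transcripts aligned over 2201 bases at 99.23% identity, of 2967 exon bases in Hspa1a and 2803 in Hspa1b, and reads from the rest of the exons can tell them apart. Their coding sequences differed at 10 of 1929 aligned positions (99.48% identity), with an identical run of 638 bases, whereas that of Hspa1b was 75.37% identical to Hspa8, with no identical run above 23 bases. The first 90 coding bases of the 3 genes on GRCm38 (GENCODE M21; chr17:34971836-34971925, minus strand; chr17:34958918-34959007, minus strand; chr9:40801923-40802012, plus strand) are shown with capitals at the 22 bases of Hspa8 that differ from Hspa1a.
Hspa1a: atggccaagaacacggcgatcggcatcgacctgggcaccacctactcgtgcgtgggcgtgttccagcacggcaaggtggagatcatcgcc
Hspa1b: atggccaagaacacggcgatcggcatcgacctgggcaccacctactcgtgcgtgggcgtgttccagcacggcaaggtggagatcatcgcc
Hspa8: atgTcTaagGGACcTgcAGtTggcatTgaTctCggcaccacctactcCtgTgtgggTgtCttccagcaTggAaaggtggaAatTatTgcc

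The promoters of the pair are near copies as well. RefSeq windows on GRCm38.p6, from 250 bases before to 50 after the start site, were at hand for 7 of the 10 genes. The windows of Hspa1a and Hspa1b differed at 4 of 300 bases. The 150 bases before the start site are shown for the pair (chr17:34972157-34972306 and chr17:34959239-34959388, minus strand) and for the small heat shock gene Hspb1 (chr5:135887769-135887918, plus strand), with capitals at matches to GAANNTTC or TTCNNGAA, the 2 ways in which a pair of inverted GAA repeats can face each other (N is any base).
Hspa1a promoter: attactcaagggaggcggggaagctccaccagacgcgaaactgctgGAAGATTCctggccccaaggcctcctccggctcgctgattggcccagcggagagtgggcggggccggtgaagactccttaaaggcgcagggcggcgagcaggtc
Hspa1b promoter: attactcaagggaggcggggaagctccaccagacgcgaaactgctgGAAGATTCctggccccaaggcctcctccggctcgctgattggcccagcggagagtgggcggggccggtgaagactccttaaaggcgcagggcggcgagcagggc
Hspb1 promoter: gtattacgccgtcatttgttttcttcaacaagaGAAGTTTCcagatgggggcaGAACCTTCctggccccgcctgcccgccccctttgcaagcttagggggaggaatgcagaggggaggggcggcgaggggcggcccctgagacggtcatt
A further repeat makes the full element, GAANNTTC followed at once by NNGAA, searched on both strands, which was found in the windows of Hsph1 and Hspe1 only. Their matches are shown with the bases on either side (chr5:149636287-149636306, minus strand, and chr1:55088053-55088082, plus strand) and with capitals at the element. In Hspe1 it is 2 overlapping matches before the start site, and in Hsph1 it lies after the start site, within the transcript.
Hsph1 element: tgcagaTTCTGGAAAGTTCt
Hspe1 element: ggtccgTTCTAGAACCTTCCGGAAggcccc
The full element was in a window of 2 of the 7 genes and of 0.662% of the 27025 genes with a window. GAANNTTC, which every full element contains, was in 6 of the 7, all but Dnajb1, and in 9.04% of genes, and TTCNNGAA, which it contains as well, was in Hsph1 and Hspe1 and in 9.6% of genes. A match of letters is a description of the window and does not show that HSF1 was bound in these livers.

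Of the 10 genes, 3 fell with HCD (Hspa1b, Hsph1 and Hspa8) and 0 rose, by edgeR's quasi-likelihood test at an adjusted p under 0.05, where 1.32% of the 13105 genes tested fell and 1.95% rose, 3.27% in all. With no adjustment, 7 of the 10 were lower and 0 higher at p of 0.05 or less, against 9.81% and 11.1% of all genes. In 5 of the 10 all 3 HCD livers lay under all 3 RD livers (13.7% of all genes), and in none did they all lie over them (14.0% of all genes). The log2 fold change was below 0 for 9 of the 10, with a median of -0.95, against 49.3% of all genes and a median of 0.01. The inducible genes had a median of -0.99, with 2 of 7 called, and the constitutive genes one of -0.56, with 1 of 2 called. DESeq2 called 5 of the 10 lower, Hspa1b, Hsph1, Hsp90aa1, Bag3 and Hspa8, and 3.19% of its genes. Without HCD replicate 1 the genes called by edgeR were again 3, Hsph1, Hsp90aa1 and Hspa8, and the median of the inducible genes was -0.78, where 1.02% of all genes tested fell. Without RD replicate 1, without RD replicate 2 or without HCD replicate 3, none of the 10 was called, and only 0.157%, 0.224% and 0.362% of all genes tested fell in those fits.

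**Figure D1:**
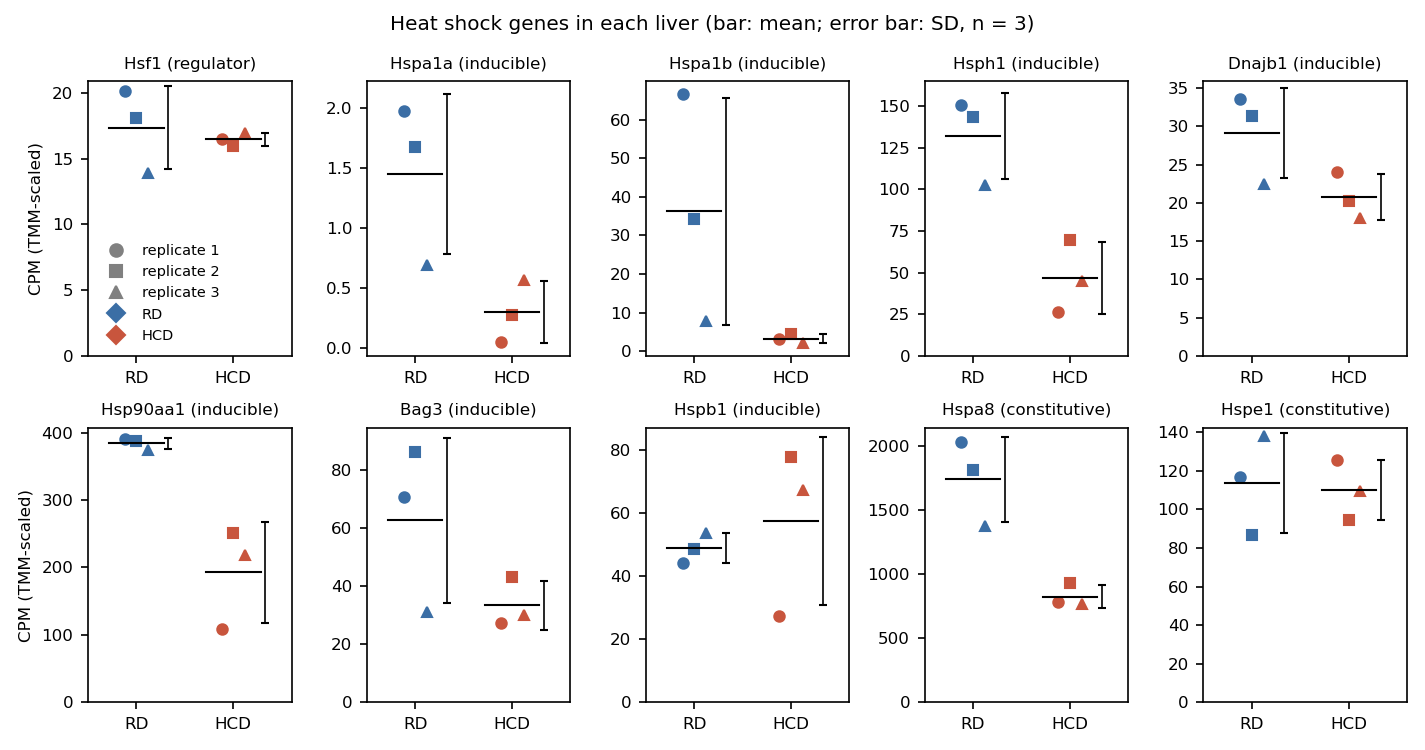
Level of each of the 10 genes in CPM (vertical axis, own scale per gene) in the 3 RD livers (blue) and the 3 HCD livers (red), with the symbol giving the replicate number, a bar at the mean and an error bar of 1 SD. For Hspa1a, Hspa1b, Hsph1, Hsp90aa1 and Hspa8 every HCD liver lies under every RD liver, and for the other 5 genes the diets overlap.

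Hsf1 RNA did not differ detectably between the diets. The gene (ENSMUSG00000022556, chr15:76477422-76501913) had 20.1, 18.1 and 13.9 CPM with RD against 16.5, 16.0 and 16.9 CPM with HCD. The 3 HCD livers lay within the range of the RD livers. The log2 fold change, HCD over RD throughout, was -0.08 (standard error 0.17, edgeR adjusted p = 0.841). HSF1 is controlled mostly as a protein, through its trimers and modifications, which RNA levels do not measure. Among 8 genes that belong to the HSF family or regulate HSF1, 7 were tested and none was called (3.27% of all genes were). Hsbp1, whose product binds HSF1 trimers and restrains them, had the smallest p of these, with 52.7 ± 3.22 CPM in the RD and 76.7 ± 13.8 in the HCD livers (SD, n = 3; log2 fold change 0.54, adjusted p = 0.0958). Next came Ier5, an HSF1 target that also activates it, with a log2 fold change of 0.52 (adjusted p = 0.211). In both genes the 3 HCD livers lay over the 3 RD livers (14.0% of all genes). In 1 other of the 7 tested they lay under them (13.7% of all genes).

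Hspa1b, the more abundant inducible HSP70 gene here, was 11.1-fold lower with HCD, the farthest of the 10 genes. Hspa1b (ENSMUSG00000090877, chr17:34956436-34959238) had 66.6, 34.3 and 7.95 CPM with RD against 3.23, 4.41 and 2.03 CPM with HCD. All HCD livers were lower than all RD livers, and the RD livers themselves spread widely, with RD replicate 3 close to the HCD livers. Its log2 fold change was -3.48 (standard error 0.69, adjusted p = 0.0376). The call was lost when any liver but RD replicate 3 was left out, with an adjusted p of 0.128 without RD replicate 1, 0.126 without RD replicate 2, and 0.0796, 0.0747 and 0.124 without HCD replicates 1, 2 and 3; without RD replicate 3 it was 0.00767. The size of the fall moved too, from a log2 fold change of -2.70 without RD replicate 1 to -3.96 without RD replicate 3, and was -2.51 with limma-trend on FPKM plus 1 (adjusted p = 0.118).

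Hspa1a, its near copy, was scarce in every liver. Hspa1a (ENSMUSG00000091971, chr17:34969190-34972156) had 41, 24 and 16 counts with RD against 1, 4 and 7 counts with HCD, or 1.97, 1.67 and 0.69 CPM against 0.05, 0.28 and 0.57 CPM. The HCD livers again lay under the RD livers, with HCD replicate 3 just under RD replicate 3. Its log2 fold change of -2.34 (standard error 0.83) did not pass the test (adjusted p = 0.160), and it ranged from -1.77 without HCD replicate 1 to -3.19 without HCD replicate 3 and was -0.56 with limma-trend on FPKM plus 1. The pair held 2213 counts on Hspa1b and 93 on Hspa1a over the 6 livers. The sources used here do not say how the counting treated reads that match both, so that the split between them is uncertain; summed to 1 gene they were lower by a log2 fold change of -3.41 (adjusted p = 0.0352). Hspa1a also overlaps Gm20481 on the other strand over 2225 bases, and the strand setting of the counting is not given either.

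Hsph1, an HSP110 protein that exchanges nucleotide on HSP70 and so frees its clients, fell 2.82-fold. Hsph1 (ENSMUSG00000029657, chr5:149614287-149636376) had 150.5, 143.4 and 102.5 CPM with RD against 26.4, 69.3 and 44.9 CPM with HCD. The groups did not overlap, and HCD replicate 1 was lowest. Its log2 fold change was -1.50 (standard error 0.32, adjusted p = 0.0462), and without HCD replicate 1 it was -1.21 (adjusted p = 0.0473). The call was lost without RD replicates 1, 2 or 3 (adjusted p 0.167, 0.169 and 0.0753), without HCD replicate 3 (0.134), and after a trend with gene length was removed (0.0748). It was also lost with the replicate number as a block (0.0688) and with limma-trend on FPKM plus 1 or 0.1 (0.0757 and 0.0717).

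Hsp90aa1, the inducible cytosolic HSP90, did not pass the test although its diets were apart. Hsp90aa1 (ENSMUSG00000021270, chr12:110690605-110702728) had 391, 387 and 374 CPM with RD against 109, 251 and 218 CPM with HCD. The RD livers were close together, the HCD livers were all lower, and HCD replicate 1 was the lowest of them. The log2 fold change was -0.99 (standard error 0.28, adjusted p = 0.0952). Without HCD replicate 1 it was smaller, -0.71, but past the threshold (adjusted p = 0.0473), and with no filter on low counts the adjusted p was 0.0325.

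Dnajb1, Bag3 and Hspb1 complete the inducible genes, and none passed the test. Dnajb1 (ENSMUSG00000005483, chr8:83608193-83612653), the J-domain partner that brings clients to inducible HSP70, had 33.5, 31.3 and 22.4 CPM with RD against 24.0, 20.2 and 18.1 CPM with HCD (log2 fold change -0.48, standard error 0.19, adjusted p = 0.197). Here RD replicate 3 lay under HCD replicate 1. Bag3 (ENSMUSG00000030847, chr7:128523616-128546981), a nucleotide exchange factor that links HSP70 to autophagy and to small heat shock proteins, had 70.9, 86.4 and 31.2 CPM with RD against 27.3, 43.2 and 30.0 CPM with HCD (log2 fold change -0.91, standard error 0.35, adjusted p = 0.188). RD replicate 3 lay among the HCD livers for this gene too, and the gene was called by DESeq2 (adjusted p = 0.0370). Hspb1 (ENSMUSG00000004951, chr5:135887919-135889563), a small heat shock protein, was the only 1 of the 10 with a positive log2 fold change, 0.23 (standard error 0.33, adjusted p = 0.731). Its levels were 44.3, 48.6 and 53.9 CPM with RD against 27.3, 77.9 and 67.4 CPM with HCD, so that the HCD livers lay on both sides of the RD livers, with HCD replicate 1 the lowest of all 6. Without HCD replicate 1 the log2 fold change was 0.57 (adjusted p = 0.0866), and the remaining HCD livers lay over the RD livers.

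Of the constitutive genes, Hspa8 fell and Hspe1 did not change detectably. Hspa8 (ENSMUSG00000015656, chr9:40800984-40810087), the constitutive cytosolic HSP70, had 2033, 1812 and 1379 CPM with RD against 782, 930 and 764 CPM with HCD. Every HCD liver was well under the lowest RD liver, RD replicate 3. The gene fell 2.11-fold (log2 fold change -1.08, standard error 0.19, adjusted p = 0.0289, the smallest of the 10) and was also called by DESeq2 and by limma-trend on FPKM. It was called without HCD replicate 1 (adjusted p = 0.0473) and lost its call without RD replicate 1, without RD replicate 2 or without HCD replicate 3 (adjusted p 0.130, 0.126 and 0.0874). With the replicate number as a block the call was lost as well (0.0567). Hspe1 (ENSMUSG00000073676, chr1:55088132-55091307) encodes the small co-chaperonin of the mitochondrial matrix, so that it is a heat shock gene but not a cytosolic chaperone. Its levels were 117, 86.4 and 138 CPM with RD against 125, 94.4 and 110 CPM with HCD, with the HCD livers inside the RD range (log2 fold change -0.05, standard error 0.19, adjusted p = 0.908). Of 10 annotated pseudogene copies of Hspa8, 2 were in the count table, with 205 counts against 138412 on the gene, and of 4 copies of Hsp90aa1 3 were, with 351 counts against 30786. The reads of the other copies are not known from the table.

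**Figure D2:**
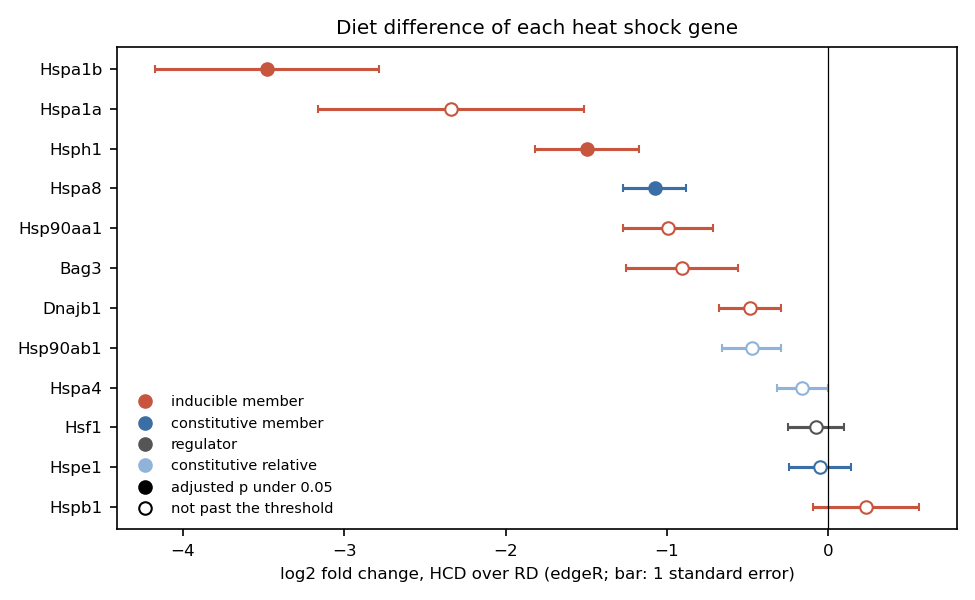
Log2 fold change of HCD over RD (horizontal axis, edgeR) for the 10 genes and the constitutive relatives Hsp90ab1 and Hspa4, with bars of 1 standard error, filled where the adjusted p is under 0.05. Hspa1b, Hsph1 and Hspa8 are filled, and Hsf1, Hspe1, Hspa4 and Hspb1 lie near 0.

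The RD livers were not alike in these genes. Averaged over the 7 inducible genes, the log2 deviation from the mean of the 6 livers was 0.90, 0.78 and 0.03 with RD against -0.98, -0.21 and -0.53 with HCD. RD replicate 3 therefore lay between the other RD livers and the HCD livers, nearest to HCD replicate 2, and HCD replicate 1 was the lowest of the 6. The pattern was not uniform over the genes: RD replicate 3 was still 0.50 above the mean for Hsp90aa1 and 0.44 for Hsph1, but 0.48 below it for Bag3 and 0.22 below it for Hspa1b.

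**Figure D3:**
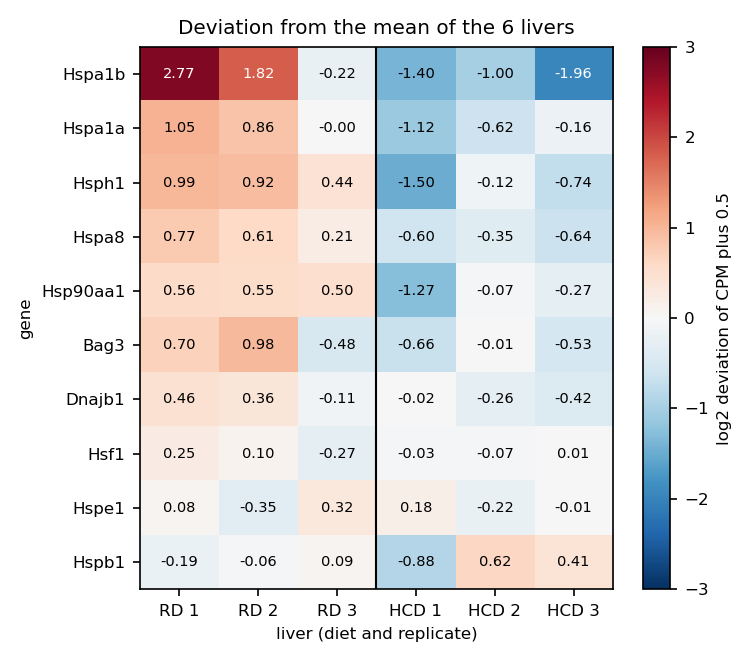
Deviation of each liver from the mean of all 6, in log2 of CPM plus 0.5 (colour and printed value), for the 10 genes (rows) in each liver (columns, RD left of the line, HCD right). RD replicates 1 and 2 are above the mean for all of the genes from Hspa1b down to Hsf1, RD replicate 3 is mixed, and HCD replicate 1 has the lowest value of Hspa1a, Hsph1, Hsp90aa1, Bag3 and Hspb1.

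The inducible genes were then set against their constitutive relatives within each liver, which asks whether the 2 forms of a chaperone differed by the same amount. Per length, the constitutive form was the more abundant one in all 3 families with RD: Hspa8 had a mean of 590 FPKM against 18.8 for Hspa1b and 0.71 for Hspa1a, and Hsp90aa1 made up 18.8% ± 1.99 (SD, n = 3) of the summed FPKM of Hsp90aa1 and Hsp90ab1. Hsph1 and its relative Hspa4 were closer, with Hsph1 at 42.6% ± 2.37 of their sum. The 4 pairs were compared by the log2 ratio of CPM plus 0.5, with an exact two-sided permutation test over the 6 livers, whose smallest p is 0.1 with 3 livers a group, and with adjustment over the 4 pairs. No pair could therefore reach 0.05, and the groups did not overlap in 2 of the 4.

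Hspa1b was lower with HCD relative to Hspa8 as well as in level. The log2 ratio of Hspa1b to Hspa8 was -4.92, -5.70 and -7.35 with RD against -7.71, -7.57 and -8.24 with HCD. The HCD livers were all lower (HCD minus RD -1.85, exact permutation p = 0.1, adjusted 0.2), and RD replicate 3 lay next to HCD replicates 1 and 2. The difference was -1.91 without HCD replicate 1, -1.31 without RD replicate 1, -2.53 without RD replicate 3 and -0.96 with a pseudocount of 5 CPM. As a share of the FPKM of Hspa1a, Hspa1b and Hspa8, the inducible pair made up 4.91%, 2.95% and 0.948% with RD against 0.640%, 0.765% and 0.512% with HCD. The summed FPKM of the 3 genes was 484 to 723 with RD and 268 to 315 with HCD. For Hspa1a alone the ratio to Hspa8 overlapped between the diets (difference -0.21, exact permutation p = 0.6, adjusted 0.6), and at its few counts this difference took either sign with the pseudocount, from -1.27 with 0.05 CPM to 0.78 with 5 CPM.

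Relative to Hspa4, which also exchanges nucleotide on HSP70, Hsph1 was lower in every HCD liver than in any RD liver. The log2 ratio of Hsph1 to Hspa4 was 0.05, 0.04 and -0.20 with RD against -1.91, -0.82 and -1.59 with HCD. The RD livers were close to each other and the HCD livers were all lower (difference -1.41, exact permutation p = 0.1, adjusted 0.2), also without HCD replicate 1 (difference -1.17). Hspa4 itself averaged 134 ± 14.6 CPM in the RD livers and 120 ± 18.2 in the HCD livers (SD, n = 3; log2 fold change -0.16, adjusted p = 0.598). The share of Hsph1 in the summed FPKM of the 2 genes was 44.1%, 43.8% and 39.9% with RD and 16.7%, 30.0% and 20.0% with HCD, in replicate order.

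Hsp90aa1 and Hsp90ab1 were less clearly apart. The log2 ratio of Hsp90aa1 to Hsp90ab1 was -1.76, -1.53 and -1.90 with RD against -2.82, -1.87 and -2.28 with HCD, and HCD replicate 2 lay among the RD livers (difference -0.60, exact permutation p = 0.2, adjusted 0.267). Without HCD replicate 1 the difference was -0.35. Hsp90ab1, the constitutive form, had 1276 ± 144 CPM with RD and 918 ± 146 with HCD (SD, n = 3), and all 3 HCD livers lay under the RD livers (log2 fold change -0.47, adjusted p = 0.188).

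**Figure D4:**
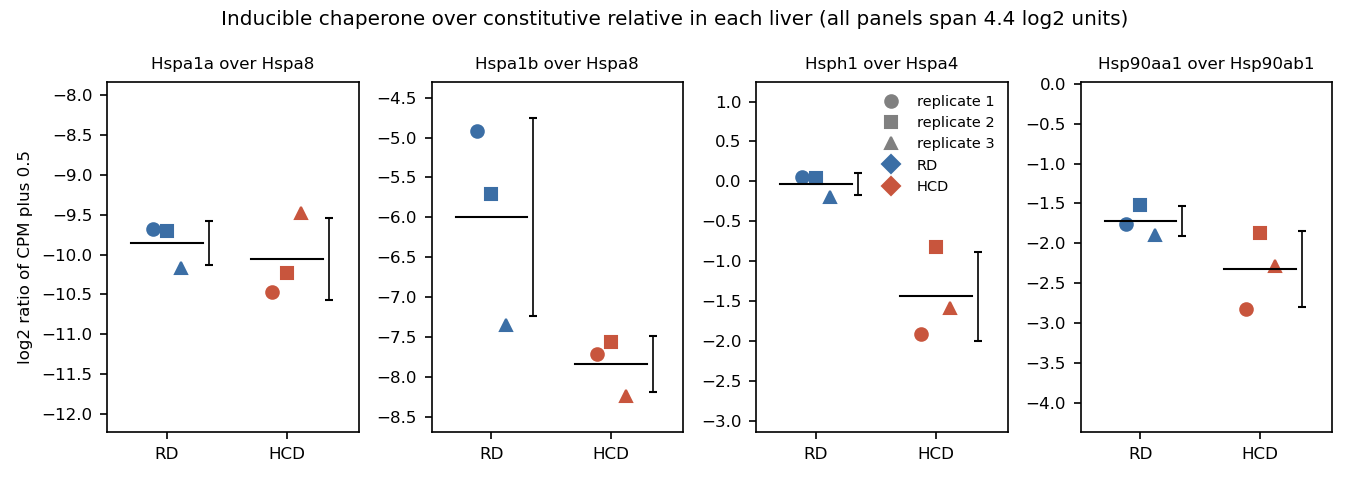
Log2 ratio of an inducible chaperone to its constitutive relative (vertical axis, CPM plus 0.5; the 4 panels start at different values and span the same number of log2 units) in the 3 RD livers (blue) and 3 HCD livers (red), with the mean and an error bar of 1 SD. The diets are apart for Hspa1b over Hspa8 and Hsph1 over Hspa4 and overlap for Hspa1a over Hspa8 and Hsp90aa1 over Hsp90ab1.

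Further genes that HSF1 is known to induce were read from a list of 20, all of which were tested. Of these, 3 fell and 0 rose (1.32% and 1.95% of all genes), and before adjustment 6 had p of 0.05 or less, all lower (9.81% of all genes), with a median log2 fold change of -0.16. Hspb8, a small heat shock protein that works with BAG3, averaged 242 ± 23.4 CPM in the RD livers and 124 ± 3.64 in the HCD livers (SD, n = 3; log2 fold change -0.97, adjusted p = 0.0130). The log2 fold change was -1.05 for Hspa4l, an HSP110 relative of Hsph1 (adjusted p = 0.0130), and for Dnaja1, a J-domain partner of HSP70, it was -0.94 (adjusted p = 0.0421). Without HCD replicate 1 the calls of Hspb8 and Hspa4l held (0.0215 and 0.0268) and that of Dnaja1 did not (0.0766); without RD replicate 1 or RD replicate 2 none of the 3 was called (0.0541 to 0.171). Dnaja1 also lost its call without RD replicate 3 (0.0524) or HCD replicate 3 (0.120), and Hspb8 without HCD replicate 3 (0.0542). Most of the list, 14 of the 20 genes, thus passed neither threshold.

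Constitutive cytosolic chaperones and cochaperones, a list of 30 that includes the chaperonin and prefoldin subunits, had a median log2 fold change of 0.02, with 1 gene called lower and 0 higher (1.32% and 1.95% of all genes). The called gene was Dnajb2, a J-domain protein, with 78.1 ± 8.08 CPM in the RD and 45.4 ± 3.78 in the HCD livers (SD, n = 3; log2 fold change -0.78, adjusted p = 0.0256, and 0.0909, 0.122, 0.0770 and 0.0759 without RD replicates 1, 2 and 3 and HCD replicate 3). Before adjustment, 4 of the 30 were lower and 3 higher at p of 0.05 or less, close to the 9.81% and 11.1% over all genes. The 9 mitochondrial chaperones and proteases had a median of 0.00, and the single call was Dnajc19, a J-domain protein of the protein import motor, which was higher with HCD (log2 fold change 1.04, adjusted p = 0.0494). That call was lost without any liver but HCD replicate 2 (adjusted p 0.0860 without HCD replicate 1 and up to 0.169 without RD replicate 2), and also with RLE factors (0.0508), with library sizes alone (0.0661), after the length trend was removed (0.0649) and with limma-trend on FPKM plus 1 or 0.1 (0.103 and 0.0965).

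The chaperones of the endoplasmic reticulum, which answer to the unfolded protein response rather than to HSF1 alone, were lower in part as well. All 13 of the listed luminal genes had a log2 fold change below 0, with a median of -0.97, 5 of them fell and 0 rose (49.3% of all genes were below 0, 1.32% fell and 1.95% rose), and before adjustment 10 had p of 0.05 or less (9.81% of all genes were lower at that p). Hspa5, the HSP70 of this compartment, averaged 1741 ± 409 CPM in the RD livers and 703 ± 178 in the HCD livers (SD, n = 3; log2 fold change -1.31, adjusted p = 0.0354), and for Hsp90b1, its HSP90, the log2 fold change was -0.97 (adjusted p = 0.0258). The other called genes were Pdia4, a disulfide isomerase (-1.13, adjusted p = 0.0136), Creld2 (-2.02, 0.0282) and Hyou1, an exchange factor for Hspa5 (-1.65, 0.0463). Without HCD replicate 1 the adjusted p of Hyou1 was 0.0655 and the other 4 were called, and without RD replicate 1 or RD replicate 2 none of the 5 was (0.0748 to 0.179). Without RD replicate 3 Hsp90b1 and Hyou1 were not called (0.0568 and 0.0642), and without HCD replicate 3 only Pdia4 was (0.0491, against 0.0615 to 0.138 for the other 4). With all livers kept, Hspa5 and Hyou1 lost their calls after the length trend was removed (0.0504 and 0.0707). The same held with the replicate number as a block (0.0669 and 0.0534) and with limma-trend on FPKM plus 1 (0.0624 and 0.0742). Hsp90b1 lost its call with the block (0.0660) and Creld2 with that limma-trend (0.0538).

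**Figure D5:**
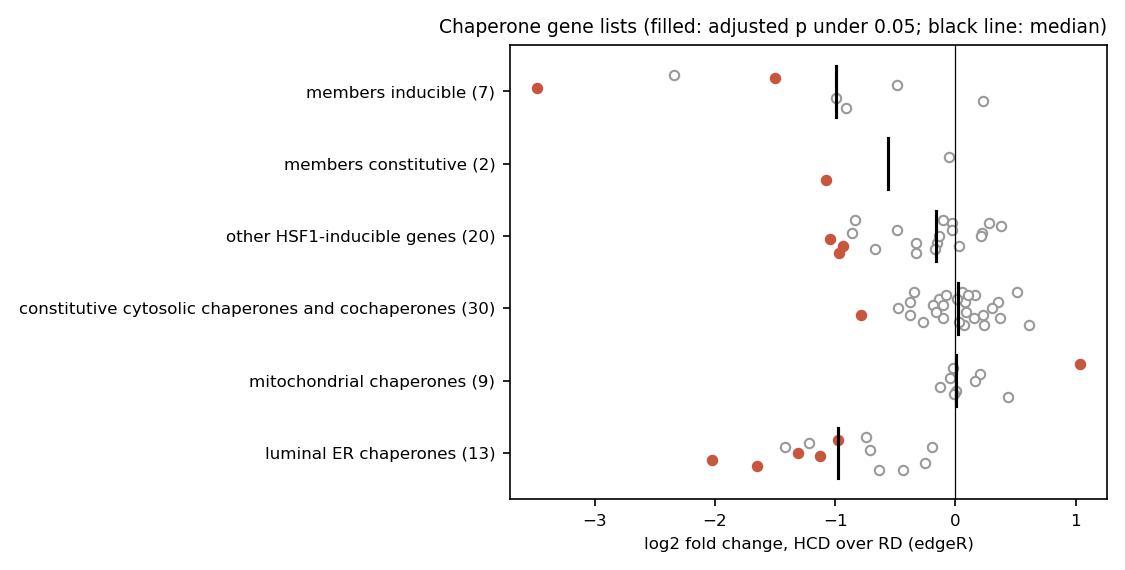
Log2 fold change of HCD over RD (horizontal axis, edgeR) for each tested gene of the inducible and constitutive heat shock genes and of 4 chaperone lists, with the number of genes in brackets, filled points at an adjusted p under 0.05 and a black line at the median. The inducible genes and the luminal genes of the endoplasmic reticulum lie mostly under 0, and the constitutive cytosolic and mitochondrial lists are spread around it.

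The genes whose profile over the 6 livers was most like the mean of the 7 inducible genes were found among 9108 other genes that averaged 5 CPM or more, by the root mean square of the differences in log2 deviation. Hspa5 was nearest (0.117), followed by Manf (0.127), Mlec (0.160), Per2 (0.167) and Cep85 (0.167). Hspa5, Manf and Mlec encode proteins of the endoplasmic reticulum, and Per2 is a clock gene. Among the 10 genes themselves Hspa8 was nearest, at 0.205, and Hspa1b was farthest, at 1.12, followed by Hspe1 (0.780), Hspb1 (0.761) and Hsf1 (0.603). The 7 inducible genes are part of that mean, and Hspa8, Hspe1 and Hsf1 are not, so these distances are not on equal terms. Hspa1b had the widest deviations of the 10, from 2.77 in RD replicate 1 to -1.96 in HCD replicate 3.

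Clock and immediate early genes were read beside these results. Heat shock genes cycle over the day in liver and respond to handling, and the hour of collection is not given in the labels. Of 12 clock genes tested edgeR called none, and before adjustment 5 were lower and 3 higher at p of 0.05 or less (9.81% and 11.1% of all genes): the log2 fold change was -0.95 for Nr1d2 (adjusted p = 0.0522), 1.67 for Per1 (0.0566) and -1.08 for Per2, which HSF1 is also known to induce (0.0665). DESeq2 called these 3 (adjusted p 0.00233, 0.000208 and 0.0108), as did edgeR with no filter on low counts (0.0186, 0.0111 and 0.0334), and without HCD replicate 1 edgeR called Nr1d2 and Per1 (0.0439 and 0.0297). The summed level of the 14 clock genes in the table was 280 to 292 CPM with RD and 239 to 253 with HCD, so that the diets did not overlap. Of 12 immediate early genes edgeR called none, and before adjustment 2 were higher at p of 0.05 or less (11.1% of all genes). Ier2 differed by a log2 fold change of 0.76 (adjusted p = 0.106) and Fos by 1.79 (0.129), while Nr4a1, at 2.68 (0.319), turned to -0.50 without HCD replicate 1. DESeq2 called Ier2 and Fos higher (0.0331 and 0.0217), and edgeR called Fos without HCD replicate 2 (0.0456). Without HCD replicate 1 edgeR called neither, with log2 fold changes of 0.60 for Ier2 (adjusted p = 0.195) and 1.31 for Fos (0.277). The immediate early genes summed to 198, 199 and 276 CPM with RD and 414, 177 and 205 with HCD, in replicate order. The part of collection time or handling in the heat shock results was not tested.

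Cell type markers overlapped between the diets in their sums. The markers of Kupffer cells and leukocytes summed to 95.02 to 170 CPM with RD and 135 to 315 with HCD, and all 8 tested were above 0 in log2 fold change, with 0 called and 3 higher at p of 0.05 or less before adjustment (11.1% of all genes). Endothelial markers summed to 83.8 to 144 CPM with RD and 106 to 172 with HCD, stellate cell markers to 187 to 197 and 191 to 337, and cholangiocyte markers to 37.4 to 91.9 and 64.5 to 98.1. Above 0 in log2 fold change were 5 of 6 endothelial, 6 of 6 stellate cell and 4 of 5 cholangiocyte markers, with 0 called. All HCD livers lay over all RD livers in 1, 0 and 2 of them (14.0% of all genes). Erythroid markers summed to 138 to 239 CPM with RD and 177 to 468 with HCD, 2 of the 5, Hba-a1 and Hbb-bs, were called higher (1.95% of all genes), and in 3 of the 5 all HCD livers lay over all RD livers (14.0% of all genes). Of the 11 listed markers of Kupffer cells and leukocytes 10 were in the deposited tables, and every gene of those tables had counts in some liver. In whole liver, fewer cells of a type and less RNA per cell cannot be told apart, and the part of cell makeup in the heat shock results was not tested.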

How the data were processed

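RNA of 6 mouse livers, 3 RD and 3 HCD, was isolated with an RNeasy kit and sequenced by Novogene, and groups follow the sample labels. The authors deposited read counts per gene, without normalization, and FPKM, which are scaled by gene length and library total. The deposited p-values and log2 fold changes of the authors' own comparison were not used. The submitters' processing notes name STAR, HTSeq, DESeq2, edgeR and the build GRCm39, with no versions, whereas the lengths by which FPKM and counts differ matched GENCODE M21 on GRCm38 within 0.1% for 94.8% to 95.0% of genes, and for all 10 heat shock genes. Coordinates here are those of GRCm38. The options of the read counting, strand included, are not given in the sources used here.

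Counts were fitted with edgeR 4.0.16 in R 4.3.3 (TMM factors 0.886 to 1.07, filterByExpr by diet, quasi-likelihood test of diet without covariates) on the whole table, with Benjamini-Hochberg adjustment over 13105 genes and calls at an adjusted p under 0.05. The script was tested on simulated data. Ratios of pairs were tested by exact permutation in scipy 1.17.1. The spread between livers sets the precision: the chi-square per degree of freedom between libraries of 1 diet was 30.0 to 153.7. Near-identical copies are other genes whose transcripts minimap2 2.31 aligned over 200 bases or more, with an identity of at least 90% (pseudogenes) or 95% (coding genes).

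Alternatives were DESeq2 1.42.0, RLE factors, library sizes alone, no filter, a filter at a mean of 50 counts, limma 3.58.1 with a trend on log2 of FPKM plus 1 or 0.1, removal of a gene length trend, the replicate number as a block, an unadjusted p, other pseudocounts, Hspa1a and Hspa1b summed, and each liver left out. The genes, lists and motifs were chosen with earlier results of these data known. Named are the 10 genes, the relatives Hspa4 and Hsp90ab1, up to 5 called genes of each chaperone or regulator list (otherwise the 2 with the smallest p), the 3 clock and immediate early genes with the smallest p, and the 5 genes of most similar profile. Proteins and the promoters of Hsf1, Hspa8 and Hsp90aa1 were not analysed here.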

Additional observations from a re-analysis of the deposited data

How the results depend on the processing

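The direction of the fall of Hspa1b, Hsph1 and Hspa8 held in every fit that was rerun across all genes, and their calls did not; pseudocounts were varied for the ratios of pairs only. Of the 10 heat shock genes 3 were called lower; the number was 5 with DESeq2 (Hspa1b, Hsph1, Hsp90aa1, Bag3 and Hspa8), 7 at an unadjusted p of 0.05 or less, 1 with limma-trend on FPKM plus 1 and 1 with FPKM plus 0.1 (Hspa8 in both), and 0 to 3 when each liver was left out in turn. With the replicate number as a block it was 1 (Hspa1b, adjusted p = 0.0465, against 0.0567 for Hspa8 and 0.0688 for Hsph1). The block rests on a number alone, since same-numbered livers did not deviate together (correlations -0.0761, 0.0879 and -0.0413). None of the 10 was called higher under any alternative. Over all genes, the calls went from 428 to 995 with DESeq2, 649 with no filter, 251 after the length trend was removed, 219 and 275 with limma-trend on FPKM plus 1 and plus 0.1, 136 with the block, and 36 to 335 with each liver left out. DESeq2 called 3.19% of its genes lower. The median of the inducible genes stayed between -1.24 and -0.78 with each liver left out. The difference in the log2 ratio of Hspa1a to Hspa8 was -1.27 with a pseudocount of 0.05 CPM, 0.78 with 5 CPM, -0.71 on FPKM plus 0.1 and -1.79 with Hspa1a and Hspa1b summed, and -0.50 to -0.0025 with each liver left out. Single genes changed sign: Hspb1 went to -0.058 without HCD replicate 2 (-0.058 to 0.57 over the livers left out), Hspe1 to 0.11 without RD replicate 3 and 0.041 without HCD replicate 2 (-0.22 to 0.11), Hsf1 to 0.030 after the length trend was removed and 0.042 without RD replicate 1 (-0.22 to 0.042), and Nr4a1 to -0.50 without HCD replicate 1 (-0.50 to 5.45). Calls of other chaperones that ended with all 6 livers kept were Hspa5 (adjusted p = 0.0504 after the length trend was removed, 0.0669 with the block, 0.0624 and 0.0555 with limma-trend on FPKM plus 1 and plus 0.1), Hyou1 (0.0707, 0.0534, 0.0742 and 0.0671) and Dnaja1 (0.0819, 0.0716, 0.0631 and 0.0558) under the same 4, Hsp90b1 and Dnajb2 with the block (0.0660 and 0.0537), and Creld2 and Hspa4l with limma-trend on FPKM plus 1 (0.0538 and 0.0523). The cause of these shifts was not tested. Libraries of the same diet differed by much more than counting error, and for Hspa1a, with 1 to 41 counts a library, counting error adds to that spread.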
